A study of Mus musculus with 8 samples.

Results

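Genes of fatty acid oxidation and ketone body metabolism were followed in exorbital lacrimal glands (LGs) of mice on calorie restriction (CR). The set holds 38 genes chosen by symbol, and 38 of them have a row among the 24552 genes of the deposited count table. They are 5 genes of the carnitine shuttle, 4 of fatty acid activation and acyl-CoA hydrolysis, 5 acyl-CoA dehydrogenases, 5 genes of the later steps of the β-oxidation spiral, 4 auxiliary enzymes for unsaturated fatty acids, 3 of electron transfer, 5 of the peroxisome, 3 of ketone body metabolism and 4 of the choice between glucose and fat. LGs came from female C57BL/6J mice and gave 4 libraries from ad libitum (AL) feeding and 4 from CR. In the CR mice intake was cut by 40% for 4 months, from 6 to 7 months of age up to 10 to 11 months, and AL mice had the same age at collection. According to the study's methods, CR mice got their food once a day shortly before dark, and mice came from a pair of cohorts. In the second cohort the CR chow was enriched in vitamins and micronutrients. The sources used here give neither the cohort of these 8 libraries nor the hour of collection, so diet cannot be told apart from the time since the last meal.

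Mitochondria burn long-chain fatty acids only after the acyl group has been moved across their inner membrane on carnitine. Inside, each turn of the β-oxidation spiral shortens the chain and releases acetyl-CoA, and electrons pass through the electron transfer flavoprotein (ETF) to the respiratory chain. Very long chains are first shortened in peroxisomes. The liver turns surplus acetyl-CoA into ketone bodies, and most other tissues can only burn them. In fasting, free fatty acids activate PPARα, a nuclear receptor that turns on many of these genes. The LG is a secretory gland, built mainly of acinar cells that make the aqueous tear film.

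Libraries held between 12051881 and 22156511 reads counted on genes, and 11211 genes passed the filter on low counts and were tested. Levels are in CPM, in which each library is scaled by its relative log expression factor, and because reads come from 3′ ends they are compared between libraries and not between genes. Log2 fold changes compare CR with AL and come from edgeR's quasi-likelihood test, with p adjusted by Benjamini-Hochberg over all 11211 genes. A gene was called when the adjusted p was under 0.05 and the fold change at least 1.5. A floor of 3 counts corresponds to 0.152 to 0.231 CPM and covers counting error only. Each diet group holds 4 mice, and p-values measure the spread between their libraries. In bulk tissue, fewer cells of a type and less RNA per cell cannot be told apart. Summed epithelial markers of the LG, 9 genes such as Aqp5 and Bhlha15, were detected in every library at 578 to 614 CPM in AL and 720 to 797 CPM in CR. These sums did not overlap between the diets. Of the 9 genes, 8 had a log2 fold change above 0, with Sox10 called higher (2.13), and 1 below, Pax6 (-0.68).

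Of the 38 genes, 34 passed that filter, and 1 was called, Eci2, which rose under CR. Among all tested genes 1.2% were called higher and 0.785% lower, and 1 in 34 members is 2.94%. At an unadjusted p under 0.05, 9 of the 34 genes were higher and 2 lower, or 26.5% and 5.88%, against 8.62% and 8.1% of all genes. In 3 of the 34 (8.82%), Eci2, Cpt1a and Etfa, the lowest CR library exceeded the highest AL library, as in 4.58% of all genes. The reverse held for 0 of the 34 and for 5.2% of all genes. The median log2 fold change of the 34 genes was 0.26, with 22 above 0 and 12 below, and over all genes it was 0.01. Single genes ranged from -0.96 for Bdh1 to 2.34 for Angptl4. Shuttle genes had a median of 0.98, and ketone and peroxisome genes had medians of -0.47 and -0.16.

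**Figure D1:**
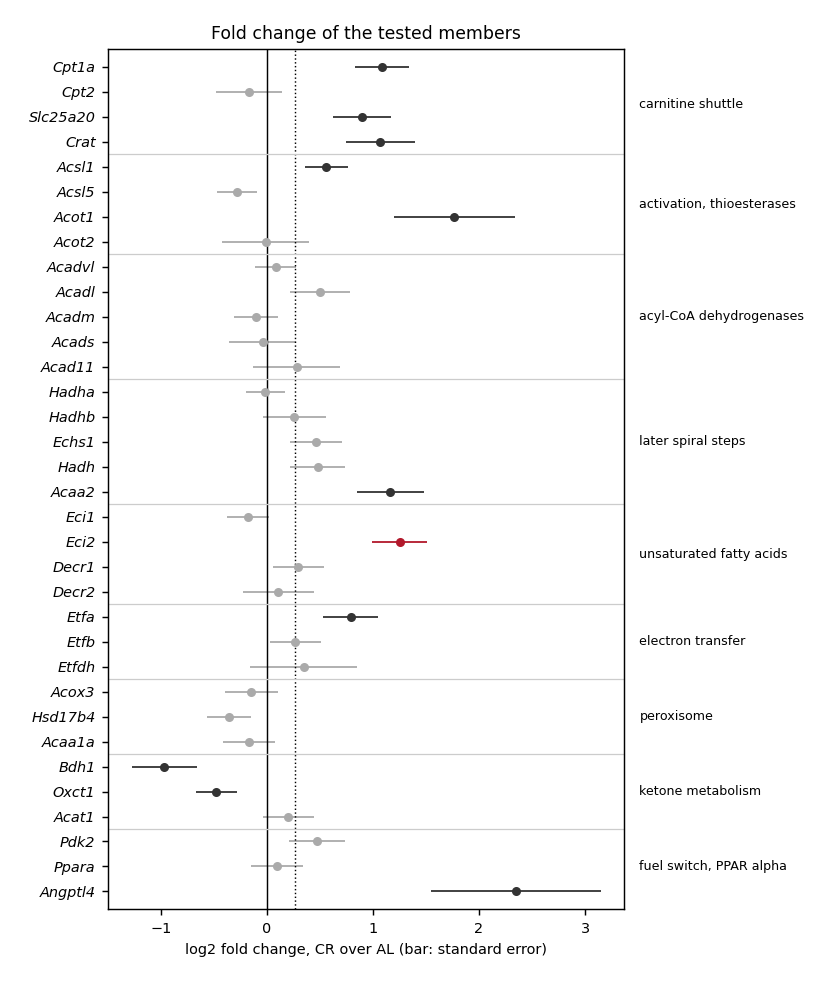
Log2 fold change of CR over AL for the 34 tested genes, by role, with the standard error as a bar. Red marks the 1 called gene, Eci2, black the other genes with an unadjusted p under 0.05 and grey the rest, and the dotted line is the median of 0.26.

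The CR libraries differed in how many of these genes stood out. Above every AL library lay 9, 17, 15 and 10 of the 34 genes in CR libraries 1 to 4, where 24.4 to 25.4% of all tested genes did so. Below every AL library lay 9, 6, 6 and 5 of them, where the shares of all genes were 22.8 to 25.8%. CR library 3 had the highest of all 8 values for 11 genes, and each other library for 1 to 6. AL library 4 had the lowest for 7, and AL libraries 2 and 3 for 6 each. Such counts were not made over all genes, so nothing is read from them.

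**Figure D2:**
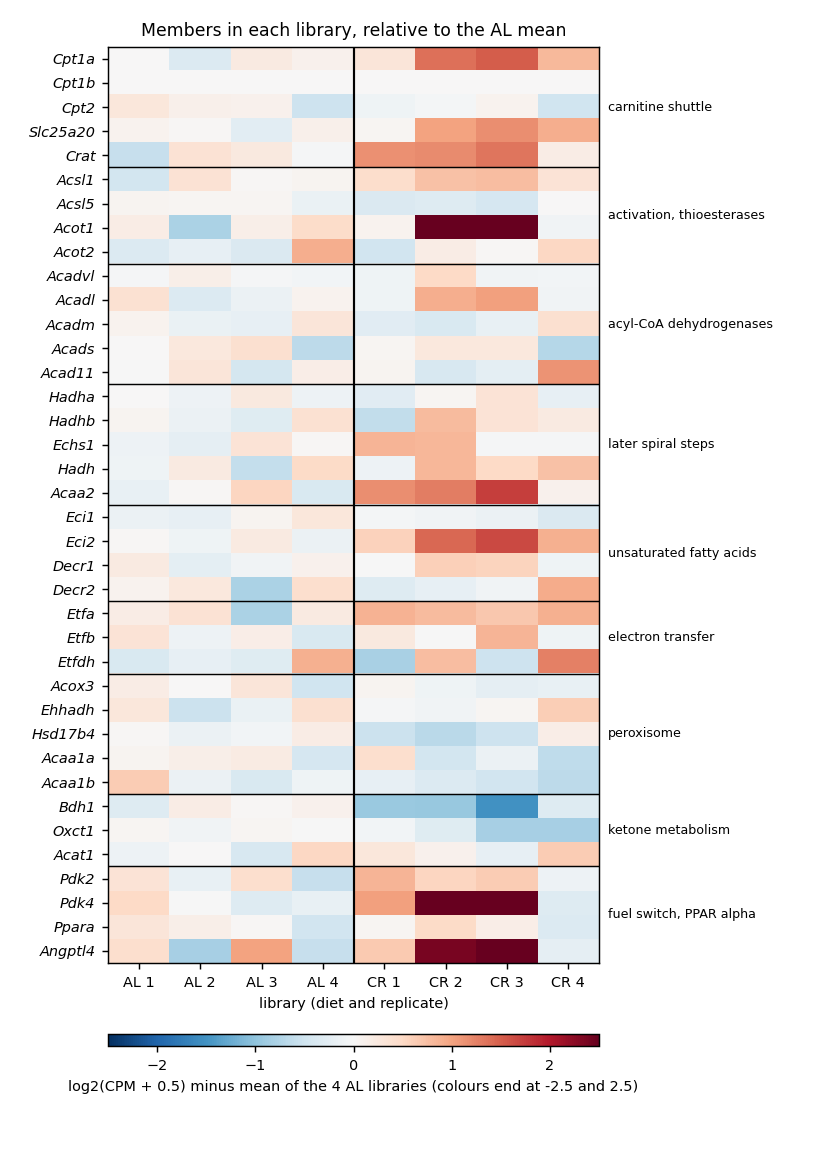
Level of each of the 38 genes in each library, as log2(CPM + 0.5) minus the mean of the 4 AL libraries, ordered by role. CR libraries 2 and 3 are the darkest red for Acot1, Pdk4 and Angptl4, the shuttle genes Cpt1a, Slc25a20 and Crat are mostly red under CR, and Bdh1 and Oxct1 are blue in most CR libraries.

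The stretches before the transcript start of 4 of these genes are printed as examples. Eci2 is the called gene, Cpt1a encodes the enzyme that admits fatty acids to mitochondria, and Acot1 and Pdk4 were high in the same CR libraries. Sequences are those of RefSeq on GRCm38.p6, 5′ to 3′ on the strand of the gene, cut where GENCODE places an exon of the gene itself. Capitals mark the hexamers AGGTCA, the core of PPAR and other nuclear receptor elements, GGGCGG, the GC box bound by SP1, and CACGTG, the E-box, on either strand. The stretches lie at chr13:34994282-34994394 (minus strand) for Eci2, which is 250 to 138 bases before the start and within the annotated gene but outside its exons, at chr19:3323051-3323284 (plus strand) for Cpt1a, likewise within the gene and outside its exons, at chr12:84009252-84009489 (plus strand) for Acot1 and at chr6:5496310-5496528 (minus strand) for Pdk4, both upstream of the annotated gene.
Eci2: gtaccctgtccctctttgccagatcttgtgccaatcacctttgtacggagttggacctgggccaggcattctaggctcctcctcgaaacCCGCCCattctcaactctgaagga
Cpt1a: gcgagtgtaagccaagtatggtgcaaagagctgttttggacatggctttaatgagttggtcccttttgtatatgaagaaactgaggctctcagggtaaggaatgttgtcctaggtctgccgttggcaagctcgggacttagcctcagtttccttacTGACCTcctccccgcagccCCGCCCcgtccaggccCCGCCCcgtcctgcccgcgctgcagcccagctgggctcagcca
Acot1: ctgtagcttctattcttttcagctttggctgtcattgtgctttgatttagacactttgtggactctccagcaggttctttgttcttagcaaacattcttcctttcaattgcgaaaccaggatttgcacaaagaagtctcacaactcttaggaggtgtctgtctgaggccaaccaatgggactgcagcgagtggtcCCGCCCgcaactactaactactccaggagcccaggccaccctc
Pdk4: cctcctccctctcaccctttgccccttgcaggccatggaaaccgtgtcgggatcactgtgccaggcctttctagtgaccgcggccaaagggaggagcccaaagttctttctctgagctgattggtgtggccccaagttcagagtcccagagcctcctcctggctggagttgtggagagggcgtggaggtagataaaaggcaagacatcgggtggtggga
Each match shown lies on the other strand and so reads as the reverse complement, TGACCT for AGGTCA and CCGCCC for GGGCGG. The Cpt1a stretch has 1 AGGTCA match, whose first base lies 94 bases before the start, and GC boxes at 75 and 59 bases. The other stretches show a GC box in Eci2 at 161 bases, a GC box in Acot1 at 55 bases and no capital in Pdk4. RefSeq windows of 250 bases before to 50 bases after the start were at hand for 31 of the 38 genes, 34 windows in all. AGGTCA occurred in 11.8% of them and in 16.3% of the 32851 windows of all genes. A direct repeat of AGGTCA with 1 base of any kind between the copies, which also counts as an AGGTCA match, occurred in 0 of the 34 windows and in 0.0396% of all. CACGTG occurred in 2.94% against 7.15%, and GGGCGG in 64.7% against 35.7%. These are matches of letters on both strands and show no binding.

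Genes of the carnitine shuttle had the highest median of the roles. Of the 5, 4 were tested, and 3 had an unadjusted p under 0.05, each higher under CR, with none called. Cpt1a (Gene ID 12894) makes acylcarnitine at the outer mitochondrial membrane, the rate-limiting step. It had 18.5, 14.3, 21.3 and 19.7 CPM in AL libraries 1 to 4 and 22.6, 48.4, 53.1 and 32.3 CPM in CR libraries 1 to 4. The groups did not overlap, although CR library 1 lay close to the highest AL library, and the log2 fold change was 1.08 (standard error 0.26, edgeR adjusted p = 0.0540). Slc25a20 (Gene ID 57279) encodes the carrier that exchanges acylcarnitine for carnitine across the inner membrane. Its 4 AL libraries held 5.39, 5.15, 4.08 and 5.53 CPM and its CR libraries 5.23, 10.6, 11.8 and 9.88 CPM. CR library 1 fell within the AL range and the other CR libraries lay well above it, for a log2 fold change of 0.90 (standard error 0.27, edgeR adjusted p = 0.113). Crat (Gene ID 12908) makes acetylcarnitine and so buffers acetyl-CoA. It was at 2.31, 4.91, 4.45 and 3.60 CPM in AL and 8.70, 9.0, 10.2 and 4.28 CPM in CR, and here CR library 4 was the one within the AL range (log2 fold change 1.07, standard error 0.32, edgeR adjusted p = 0.115). Cpt2, which releases the acyl group inside, had AL values from 2.33 to 4.47 and CR values from 2.39 to 3.84 CPM, for a log2 fold change of -0.17 (standard error 0.31). Cpt1b, the muscle form of the outer enzyme, had 0 counts in every library, and 60.2% of the 75-base windows at its 3′ ends are shared with the readthrough gene Gm44502, so reads there may not have been assigned.

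Among the 4 genes of activation and hydrolysis, Acsl1 and Acot1 were higher at an unadjusted p under 0.05 and none was called. Acsl1 (Gene ID 14081) joins long-chain fatty acids to CoA. Its AL libraries had 15.3, 27.4, 21.7 and 22.2 CPM and its CR libraries 28.8, 35.6, 36.5 and 27.0 CPM, so that CR library 4 fell just under the highest AL library (log2 fold change 0.56, standard error 0.20, edgeR adjusted p = 0.177). Acot1 (Gene ID 26897) is a cytosolic thioesterase that splits acyl-CoA and a known PPARα target. It had 15.3, 7.48, 14.7 and 18.6 CPM in AL and 14.2, 80.5, 83.6 and 12.5 CPM in CR. CR libraries 2 and 3 were far above all others and CR libraries 1 and 4 lay within the AL range. The log2 fold change of 1.77 had a standard error of 0.57 (edgeR adjusted p = 0.134). Its mitochondrial paralog Acot2, in which 12.0% of the 3′ windows of Acot1 recur, ranged from 2.04 to 5.63 CPM in AL and in CR from 1.84 to 4.17 CPM (log2 fold change -0.01). Acsl5, another acyl-CoA synthetase, had 10.2 to 12.3 CPM in AL and 8.48 to 11.7 CPM in CR, with 3 of 4 CR libraries below every AL library (log2 fold change -0.28, standard error 0.19, edgeR adjusted p = 0.512).

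The 5 acyl-CoA dehydrogenases, which open each turn of the spiral, included none with an unadjusted p under 0.05. Acadl, the long-chain enzyme, came closest with 79.7, 47.9, 54.7 and 64.8 CPM in AL and 56.0, 114, 123 and 57.0 CPM in CR. CR libraries 2 and 3 were again above the AL range and CR libraries 1 and 4 within it (log2 fold change 0.50, standard error 0.28, edgeR adjusted p = 0.412). Log2 fold changes were 0.08 for Acadvl, -0.10 for Acadm, -0.04 for Acads, which act on very long, medium and short chains, and 0.28 for Acad11, with standard errors from 0.19 to 0.41. In each of these 4 genes the change was smaller than or about equal to its standard error.

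Of the later spiral genes, 1 of 5 had an unadjusted p under 0.05, Acaa2, and none was called. Acaa2 (Gene ID 52538) is the thiolase that splits off acetyl-CoA in mitochondria. It was counted at 13.6, 15.7, 22.7 and 11.8 CPM in AL and at 35.0, 38.4, 52.6 and 16.7 CPM in CR, and of the CR libraries only number 4 lay within the AL range. The log2 fold change was 1.16 (standard error 0.31, edgeR adjusted p = 0.0811). Echs1, the hydratase for short chains, was at 53.1 and 51.9 CPM in CR libraries 1 and 2 and at 28.6 and 28.7 CPM in CR libraries 3 and 4, with AL libraries between 24.7 and 37.0 CPM (0.46 on the log2 scale, standard error 0.24). Hadh, the dehydrogenase of the third step, had 14.7 to 31.6 CPM in AL and 20.7 to 40.4 CPM in CR, with 3 CR libraries above the AL range (0.48, standard error 0.26). The subunits of the trifunctional protein, which handles long chains, had log2 fold changes of -0.02 (Hadha, standard error 0.18) and 0.26 (Hadhb, standard error 0.29). In Hadhb, 26.2% of the 3′ windows recur in pseudogenes.

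Auxiliary enzymes prepare unsaturated chains for the spiral, and 1 of 4 was called. Eci2 (Gene ID 23986, chromosome 13 from 34977748 to 35027096 of GRCm38, minus strand) encodes an enoyl-CoA delta isomerase found in mitochondria and peroxisomes. It had 6.47, 5.83, 7.43 and 5.63 CPM in AL libraries 1 to 4 and 9.62, 17.8, 20.7 and 12.2 CPM in CR libraries 1 to 4, and each CR library exceeded each AL library. Means were 6.34 ± 0.812 CPM for AL and 15.1 ± 5.10 CPM for CR (SD, n = 4), and Eci2 rose by 1.25 on the log2 scale (standard error 0.26, edgeR adjusted p = 0.0335). The call was lost when any AL library or CR library 2 or 3 was left out, with edgeR adjusted p-values from 0.0618 to 0.116 and log2 fold changes from 1.07 to 1.33. It was kept without CR library 1 (1.42) and without CR library 4 (1.34). Of its 3′ windows, 4.8% recur in its paralog Eci3, and the gene on the other strand is Gm16984. The mitochondrial isomerase Eci1 gave -0.18 (standard error 0.20, edgeR adjusted p = 0.727), with 9.51 to 13.6 CPM in AL and 8.55 to 10.8 CPM in CR. The 2,4-dienoyl-CoA reductases Decr1, in mitochondria, and Decr2, in peroxisomes, had log2 fold changes of 0.30 and 0.11. For Decr1, CR libraries 2 and 3 stood at 11.2 and 10.9 CPM, above the AL range of 6.07 to 8.55 CPM.

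Etfa (Gene ID 110842), the alpha subunit of ETF, varied little among the CR libraries. It had 7.63, 8.71, 3.64 and 7.81 CPM in AL and 12.6, 11.9, 10.9 and 12.8 CPM in CR, without overlap. The log2 fold change was 0.79 (standard error 0.26, edgeR adjusted p = 0.138), and without AL library 3, the lowest, it was 0.58. The beta subunit Etfb ranged from 52.4 to 87.8 CPM in AL and from 63.8 to 124 CPM in CR (0.27, standard error 0.24), and 54.4% of its 3′ windows lie also in the overlapping gene Gm45233. Etfdh, the oxidoreductase that takes electrons from ETF, varied widely within both diets, from 2.77 to 7.31 CPM in AL and from 1.91 to 9.61 CPM in CR (0.35, standard error 0.51).

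None of the 3 tested peroxisome genes was higher. Hsd17b4, the bifunctional enzyme of peroxisomal β-oxidation, had 155, 137, 144 and 172 CPM in AL and 105, 95.03, 105 and 169 CPM in CR. CR libraries 1 to 3 lay below every AL library and CR library 4 among the highest (log2 fold change -0.36, standard error 0.21, edgeR adjusted p = 0.433). Log2 fold changes were -0.15 for the oxidase Acox3 and -0.16 for the thiolase Acaa1a. Ehhadh and Acaa1b were too rare for the test across genes. Ehhadh, a PPARα target of the liver, had 0 to 0.457 CPM in AL and 0.178 to 0.611 CPM in CR, with two-sided p = 0.629 in the exact permutation test, and most libraries were near the floor. Acaa1b had 0.510 to 1.54 CPM in AL and 0.333 to 0.637 CPM in CR, with two-sided p = 0.0857 in the same exact test (the smallest p that 4 against 4 allow is 0.0286). Acaa1a and Acaa1b share 23.0 and 28.5% of their 3′ windows, so reads may be divided between them.

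Genes of ketone body metabolism went the other way. Of 3 tested, 2 were lower at an unadjusted p under 0.05, where 8.1% of all genes were, and none was called. Bdh1 (Gene ID 71911) interconverts β-hydroxybutyrate and acetoacetate. It had 5.16, 7.61, 6.78 and 7.15 CPM in AL and 3.25, 3.20, 1.98 and 5.22 CPM in CR. CR libraries 1 to 3 were below every AL library, CR library 4 was just above the lowest, and the log2 fold change was -0.96 (standard error 0.31, edgeR adjusted p = 0.131). Oxct1 (Gene ID 67041) encodes the CoA transferase that commits ketone bodies to oxidation. It had 73.7, 67.3, 73.2 and 70.5 CPM in AL and 68.1, 57.4, 39.9 and 39.6 CPM in CR, where CR library 1 was within the narrow AL range and the other 3 below it (log2 fold change -0.47, standard error 0.20, edgeR adjusted p = 0.241). Acat1, the acetoacetyl-CoA thiolase used in both directions, had 12.4 to 23.7 CPM in AL and 14.2 to 25.8 CPM in CR (0.20, standard error 0.24). Among the genes given library by library, Crat, Acsl1, Echs1, Eci2, Bdh1 and Oxct1 have exons that overlap a gene on the other strand, and whether counting used strand is not given in the sources used here.

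The genes of fuel choice split between steady and library-bound patterns. Ppara itself had 6.95 to 12.3 CPM in AL and 7.61 to 13.9 CPM in CR (log2 fold change 0.10, standard error 0.24, edgeR adjusted p = 0.901). Angptl4 (Gene ID 57875), a secreted inhibitor of lipoprotein lipase and a PPAR target, had 2.0, 0.552, 3.28 and 0.761 CPM in AL and 2.48, 9.24, 20.1 and 1.11 CPM in CR. Only CR libraries 2 and 3 exceeded the AL range, and the log2 fold change of 2.34 had a standard error of 0.80 (edgeR adjusted p = 0.153). Pdk4 (Gene ID 27273), the kinase that shuts pyruvate dehydrogenase in fasting, had 5, 2, 0 and 1 counts in AL libraries and 11, 70, 73 and 0 counts in CR libraries, or up to 0.385 CPM in AL and 0.778, 4.14, 4.52 and 0 CPM in CR. CR libraries 2 and 3 again stood far above the rest, CR library 4 had no count, and the exact permutation test gave a two-sided p of 0.143. Pdk2, the widely expressed kinase, had 13.5 to 27.5 CPM in AL and 18.7 to 37.0 CPM in CR, with 3 CR libraries above the AL range (0.47, standard error 0.26, edgeR adjusted p = 0.409).

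**Figure D3:**
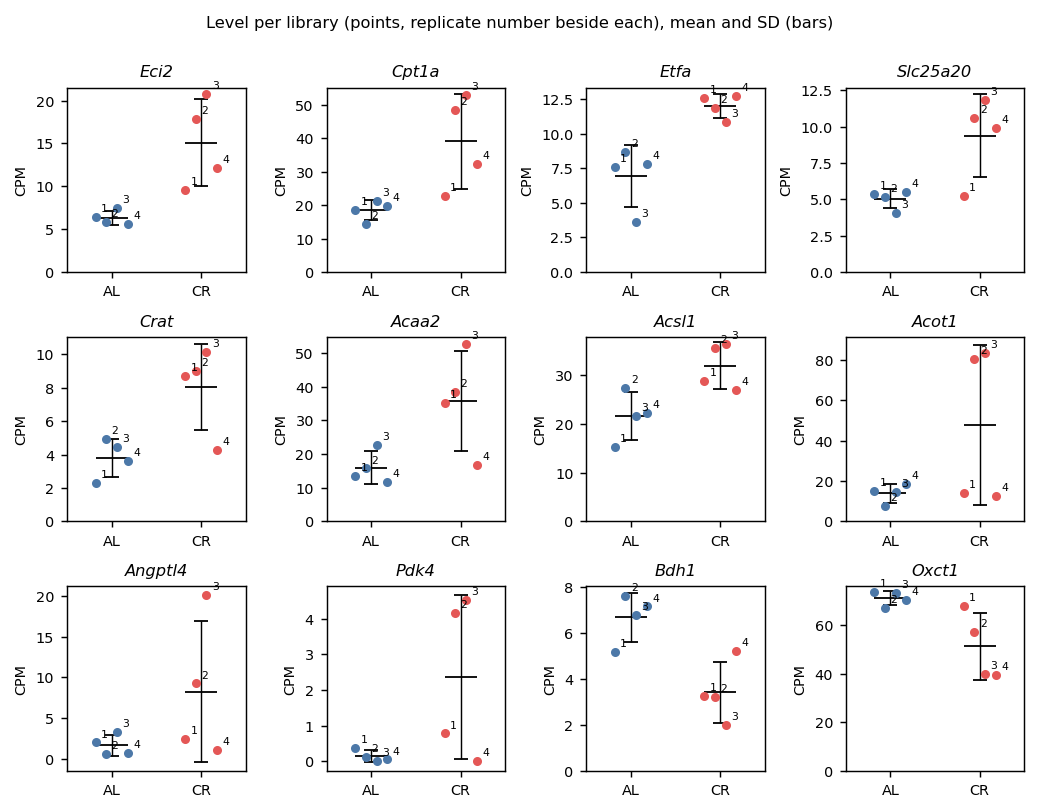
CPM of 12 of the genes in each library, with the replicate number beside each point and the mean and SD of 4 libraries as bars. For Eci2, Cpt1a and Etfa the diets do not overlap, for Acot1, Angptl4 and Pdk4 the points of CR libraries 2 and 3 stand far above the AL points, and for Bdh1 and Oxct1 most CR points lie below.

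Other genes of the same pathways, taken from 5 further lists, were also read. Of 34 other oxidation genes 33 have a row and 26 were tested, with 0 called higher and 1 lower. Slc27a2, a very long-chain acyl-CoA synthetase, had 8.71, 3.68, 2.70 and 4.57 CPM in AL and 0.778, 1.36, 0.681 and 1.33 CPM in CR, all below AL. It fell by 2.22 on the log2 scale (standard error 0.44, edgeR adjusted p = 0.0289), and the call was lost in 5 of the 8 fits that each left out a library, namely without AL library 1 or 2 or CR library 1, 2 or 3 (-1.80 to -2.37). Acacb, which makes the malonyl-CoA that inhibits CPT1, had 0.797 to 1.02 CPM in AL and 5.66, 6.10, 4.21 and 0.666 CPM in CR (2.22, edgeR adjusted p = 0.0656, called without CR library 4 at 2.58). Slc27a1, a fatty acid transporter, was highest in CR libraries 2 and 3, at 6.04 and 5.08 CPM against 0.616 to 1.60 CPM in AL (1.65, edgeR adjusted p = 0.190). Crot, the peroxisomal carnitine octanoyltransferase, was chosen after its values were seen: its 4 CR libraries at 16.05 to 23.6 CPM lay below the AL libraries at 28.5 to 49.4 CPM (-0.89, edgeR adjusted p = 0.0578, called without CR library 4 at -1.03). Acsl4, another acyl-CoA synthetase chosen in the same way, had its CR libraries at 12.8 to 27.1 CPM above the AL libraries at 9.33 to 11.7 CPM (0.85, edgeR adjusted p = 0.0825).

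Of 11 other ketone genes 8 were tested, with 0 called higher and 1 lower. Slc16a6, a monocarboxylate transporter that exports ketone bodies from the liver, had 49.1, 35.4, 46.3 and 49.1 CPM in AL and 20.7, 11.5, 15.2 and 17.1 CPM in CR. It fell by 1.48 on the log2 scale (standard error 0.21, edgeR adjusted p = 0.00550), and each of the 8 fits without 1 library called it. Slc16a7, another monocarboxylate transporter, had a log2 fold change of 1.0 (edgeR adjusted p = 0.222).

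The 10 tested genes of pyruvate entry had 0 calls and log2 fold changes from -0.25 for Pdk3 to 0.65 for Pdk1, with Pdp1 at 0.58. Of 13 tested regulators 1 was called, Ppargc1a, a coactivator of PPARα. It had 5.93, 3.31, 2.04 and 0.660 CPM in AL and 23.6, 32.1, 25.6 and 3.44 CPM in CR, and rose by 2.85 on the log2 scale (standard error 0.66, edgeR adjusted p = 0.0497). Of the 8 fits without 1 library only that without CR library 4 called it (3.21), the other 7 giving edgeR adjusted p-values from 0.0630 to 0.158. With TMM factors the edgeR adjusted p was 0.0501, and the log2 fold change of Ppargc1a was -0.12 with the parotid score of the libraries as a covariate and 0.0956 with their adipocyte score. For Esrra, a nuclear receptor, the log2 fold change was 0.97 (edgeR adjusted p = 0.203), and Pparg 1.16 (edgeR adjusted p = 0.501) at 2.05 CPM or less in every library. Of 15 further PPARα targets 9 were tested, 5 were higher at an unadjusted p under 0.05 and none was called. Plin4, a lipid droplet protein, had a log2 fold change of 1.97 (edgeR adjusted p = 0.113, called without CR library 4 at 2.28) and Klf10, a transcription factor, one of 1.47 (edgeR adjusted p = 0.234). Cyp4a14, Fabp1 and Fgf21, targets known from the liver, had 0 counts in every library.

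**Figure D4:**
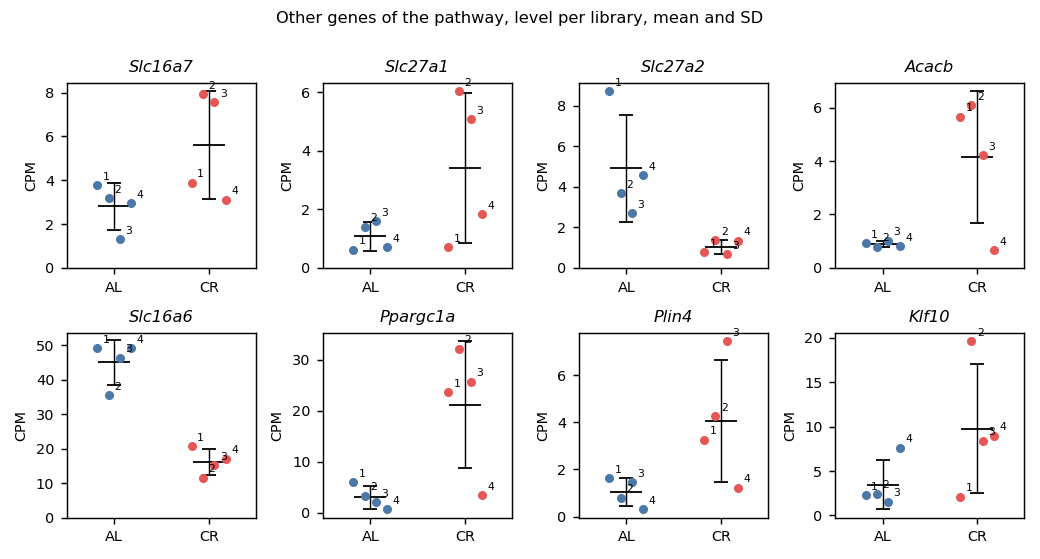
CPM in each library for 8 other pathway genes, with replicate numbers, means and SDs of 4 libraries. Slc16a6 and Slc27a2 are lower in the 4 CR libraries, Slc27a1 and Slc16a7 are highest in CR libraries 2 and 3, and Ppargc1a and Acacb are high in CR libraries 1 to 3.

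Summed markers of other cell types and tissues were read as well, and which tissue their transcripts came from was not tested. The 8 adipocyte markers summed to 9.04 to 20.1 CPM in AL and to 72.1, 80.6, 113 and 30.8 CPM in CR libraries 1 to 4, and of 6 tested, 2 rose past both thresholds, Fabp4, at 2.23 to 7.26 CPM in AL and 11.2 to 31.0 CPM in CR, and Car3. Leptin, Lep, had at most 2 counts in any library, and the brown fat marker Ucp1 at most 2. The 5 brown fat markers summed to 0.863 to 5.21 CPM in AL and 2.55 to 6.33 CPM in CR. The 12 skeletal muscle markers reached 78.5 and 62.4 CPM in CR libraries 2 and 4 and 2.15 to 17.3 CPM in the other 6. The 6 parotid markers summed to 237 to 23502 CPM in AL and to 17896 to 230420 CPM in CR, with 3 called higher. Leukocyte markers summed to 230.5 to 791 CPM in AL and 108 to 185 CPM in CR, with 4 called lower and Cd79a at 2 counts or fewer, and fibroblast markers to 158 to 285 and 134 to 202 CPM, with 2 called lower. The part of muscle, leukocyte, fibroblast and LG epithelial transcripts in the results above was not tested. Fat cells themselves express many of the genes described. Because the adipocyte and parotid scores, each the mean log2 CPM of its markers, do not overlap between the diets, they cannot be told apart from diet. When the adipocyte score was a covariate, the 34 genes had a median log2 fold change of 0.04, that of Eci2 0.70, of Cpt1a 0.59 and of Acot1 -0.81. With the parotid score that median was 0.32, and Eci2 and Cpt1a had 1.06 and 1.10. With either score 0 of the 34 genes and 0 of all genes were called by edgeR, and at an unadjusted p under 0.05 there were 0 and 1 of the 34.

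**Figure D5:**
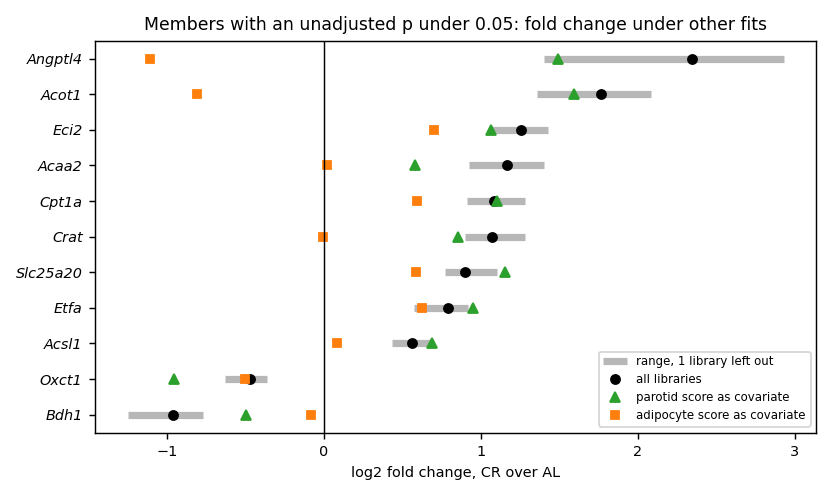
Log2 fold change of CR over AL for the 11 genes with an unadjusted p under 0.05. Black points use the 8 libraries, grey bars span the 8 fits that each left out 1 library, and triangles and squares add the parotid or adipocyte score as a covariate. Grey bars stay on 1 side of 0 for each gene, while with the adipocyte score Crat, Acot1 and Angptl4 fall below 0.

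Leaving out CR library 4 gave the most calls, 8 of 35 tested members, in a fit that also called 700 genes in all, 453 higher and 247 lower, against 222 with the 8 libraries. These were Eci2, Cpt1a (1.17), Crat (1.28), Acot1 (2.08), Acaa2 (1.40), Angptl4 (2.72), Bdh1 (-1.25) and Pdk4. Pdk4 passed the filter in that fit through the CR libraries where it was high, with the CR library that had no count of it left out, so its call there supports no difference. Without CR library 1, Cpt1a (1.28), Slc25a20 (1.10) and Eci2 were called, and in the other 6 fits none was. Over the 8 fits the median of the members stayed between 0.15 and 0.34.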

How the data were processed

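RNA of 8 LGs was reverse transcribed from an oligo(dT) primer with a Lexogen QuantSeq FWD kit and sequenced in single 75-base reads, which lie near the 3′ ends of transcripts. Genes with few reads there may be missed. The authors used cutadapt for trimming, STAR and the mm10 genome for alignment and HTSeq for counting, and deposited raw counts per gene. Versions, and whether counting used strand, are not given in the sources used here. A second deposited table holds log2 values, which equal log2 of the count over DESeq2's size factor plus 1 (largest difference 0), and was not used further.

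Of 24557 rows, 5 with a repeated symbol were dropped. Groups follow the labelled diet. Genes were filtered with filterByExpr, scaled with relative log expression factors and tested with edgeR 4.0.16 in R 4.3.3 by quasi-likelihood F tests. Standard errors were taken as the absolute log2 fold change over the square root of F. The 3 members too rare for this fit but counted were compared by exact permutation over the 70 assignments. The biological coefficient of variation was 34.7%.

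Members and lists were chosen with earlier results of these data known. Named from the other pathway lists were called genes and the 3 with the largest absolute log2 fold change in each. A gene that this rule names is not reported here. Positions and 75-base windows of the last 600 bases come from GENCODE vM21 on GRCm38. Alternatives were TMM factors, leaving out the 50 most counted genes, DESeq2 1.42.0, no filter, at least 10 counts in every library, a block for the replicate number, 2 covariates and leaving out each library. The fit was tested on simulated data with known changes. It called 22 of 100 genes with a true log2 change of 1 and 76 of 97 with a change of 2. It also called 10 unchanged genes. A missing call therefore does not show that a gene is unchanged.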

Additional observations from a re-analysis of the deposited data

Results flagged for a closer look

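In each diet group of 4 libraries, a library was singled out when its gap to the nearest other took up more of the group's range than Dixon's critical value for 4 values. Chance alone does this in about 1 of 20 groups. Among the members, AL library 4 stood apart for Acsl5, at 10.2 CPM with the others at 11.952 to 12.251 CPM, for Acot2, at 5.63 CPM with the others at 2.04 to 2.33 CPM, and for Etfdh, at 7.31 CPM with the others at 2.77 to 3.19 CPM. CR library 2 stood apart for Acadvl, at 22.0 CPM with the others at 14.3 to 14.7 CPM. CR library 4 stood apart for Decr2, at 22.7 CPM with the others at 9.13 to 10.8 CPM, for Hsd17b4, at 169 CPM with the others at 95.03 to 105 CPM, and for Ehhadh, at 0.611 CPM with the others at 0.178 to 0.248 CPM.

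Among the other pathway genes, Pdk1 was at 16.05 CPM in CR library 2, with the others at 7.89 to 8.91 CPM. Klf10 was at 7.61 CPM in AL library 4, with the others at 1.53 to 2.45 CPM. Crot was at 49.4 CPM in AL library 1, with the others at 28.5 to 31.0 CPM, and Pparg had 0 counts there, with the others at 0.552 to 0.660 CPM.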

How the results depend on the processing

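With TMM factors, or without the 50 most counted genes, the same member was called, and 11 members had an unadjusted p under 0.05. DESeq2 without shrinkage called 729 genes and 4 members (Cpt1a, Crat, Acaa2 and Eci2), no filter on low counts 436 genes and 4 members (Cpt1a, Acaa2, Eci2 and Pdk4), against 222 genes and 1 member. The cause of these differences was not tested. Pdk4 could be called without a filter only because the filter was dropped. Its level was far above the rest in CR libraries 2 and 3 alone, so its call there supports no difference. A replicate block called 700 genes, 388 higher and 312 lower, and 4 members (Cpt1a, Acaa2, Eci2 and Etfa), and turned Acot2 to 0.0713. Deviations of libraries with the same number correlated at 0.182, 0.0995, 0.278 and 0.507 over 11211 genes, and AL library 3 correlated best with CR library 1 (0.375), so the numbers were not taken as pairs. The parotid score as a covariate called 0 genes and 0 members, left 1 member at an unadjusted p under 0.05, and changed the sign of Acot2 (1.49), Acadvl (-0.31), Acadm (0.52), Echs1 (-0.17), Eci1 (0.0059), Etfb (-0.0553), Hsd17b4 (0.18), Pdk2 (-0.54), Ppara (-0.86), Pdp1 (-0.51), Pdk3 (0.52) and Ppargc1a (-0.12). The adipocyte score as a covariate called 0 genes and 0 members, left 0 members at an unadjusted p under 0.05 and a median of 0.0377, and changed the sign of Crat (-0.0051), Acsl5 (0.10), Acot1 (-0.81), Acot2 (0.25), Acadvl (-0.0484), Acadl (-0.48), Acadm (0.36), Hadhb (-0.0213), Decr1 (-0.30), Etfb (-0.35), Acox3 (0.059), Hsd17b4 (0.21), Ppara (-0.40), Angptl4 (-1.11), Slc16a7 (-0.50), Pdp1 (-1.01), Pdk3 (0.47) and Plin4 (-0.0387). Neither score overlaps between the diets. Leaving out 1 library called from 61 genes (without AL library 2) to 700 (without CR library 4) and from 0 to 8 members, Pdk4 included. Signs then changed for 9 members, whose log2 fold changes ranged from -0.21 to 0.49 for Acot2, -0.0847 to 0.151 for Acadvl, -0.31 to 0.0086 for Acadm, -0.24 to 0.15 for Acads, -0.25 to 0.48 for Acad11, -0.15 to 0.0755 for Hadha, -0.29 to 0.26 for Decr2, -0.14 to 0.81 for Etfdh and -0.05 to 0.23 for Ppara, and for Pdp1 from -0.20 to 0.91. Among the other pathway genes named, Acacb and Crot were called with DESeq2, with no filter and with the replicate block, and Plin4 with DESeq2 and the block. Ppargc1a lost its call with TMM factors (2.85, edgeR adjusted p = 0.0501).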
